A study of Mus musculus with 6 samples.

Results

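The myeloid C-type lectin receptors described here were 9 genes: Clec4a1, Clec4a2, Clec4a3, Clec4d, Clec4e, Clec4n, Clec5a, Clec7a and Clec12a. They were found by their symbols in a deposited table of 52550 mouse genes. All 9 had enough counts to be tested, among 16402 genes tested in all. RNA-seq was performed on bone marrow-derived macrophages of C57BL/6 mice, with 3 libraries from MSR1 KO mice and 3 from MSR1 WT mice. In both genotypes, bone marrow cells were grown for 7 days with M-CSF at 25 ng/ml, the growth factor that drives macrophage differentiation, and then shared a transwell system with bone marrow stem cells (BMSCs) for 48 h. MSR1 is a scavenger receptor of macrophages. Every library came from macrophages that had been co-cultured, so no library showed the receptors without BMSCs. The deleted part of Msr1 and the age of the donor mice were not given in the sources used here.

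C-type lectin receptors are membrane proteins with a fold that in many of them binds sugars, and macrophages use them to sense fungi, mycobacteria and dying cells. Activating members pair with the adaptor FcRγ (Fcer1g) or DAP12 (Tyrobp), or carry a hemITAM in their own tail, and signal through the kinase SYK and the scaffold CARD9. Inhibitory members carry an ITIM, which recruits the phosphatases SHP-1 and SHP-2. Clec4n (Dectin-2), Clec4d (MCL), Clec4e (Mincle), Clec5a (MDL-1) and Clec7a (Dectin-1) belong to the activating side. Clec12a (MICL) and Clec4a2 (DCIR) are inhibitory, and Clec4a1 and Clec4a3 are close relatives of DCIR.

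Total counts per library ranged from 36143518 to 47417448. Msr1 itself had 1825 to 2118 counts in the KO libraries and 7543 to 9219 counts in the WT libraries, a log2 fold change of -2.02 (SE 0.14, adjusted p = 0.0012, edgeR quasi-likelihood test with Benjamini-Hochberg adjustment). Msr1 was thus lower in every library labelled KO, although reads on the gene remained. Of 8 macrophage markers (Adgre1, Cd68, Csf1r, Itgam, Mertk, Fcgr1, Lyz2 and Cd14), all were tested, and their summed level was 22534 to 23688 CPM (counts scaled to library size) in KO and 22845 to 25416 CPM in WT libraries. Fcgr1, the high-affinity IgG receptor, was the only marker of these 8 called, with a log2 fold change of 1.14 (adjusted p = 0.018, edgeR). Of all tested genes, 4.91% were called.

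All 9 receptor genes lie on chromosome 6 (GRCm38 positions). Clec4a1 (122921848 to 122934619), Clec4a3 (122952515 to 122969875), Clec4a2 (123106428 to 123143999), Clec4n (123229843 to 123247021) and Clec4d (123262111 to 123275265) follow each other on the plus strand, and Clec4e (123281789 to 123289870) follows on the minus strand. Clec12a (129342691 to 129365303, plus strand) and Clec7a (129461591 to 129472779, minus strand) form a second group. Clec5a (40574894 to 40585821, minus strand) stands alone. No exon base of the 9 genes overlaps an exon of another gene on either strand in the GENCODE annotation. Of the 50-base words in their transcripts, 6.83% of those of Clec4a2 also occur in other genes, among them its relatives Clec4a4 and Clec4b1, so the count of Clec4a2 is uncertain to that extent. For the other 8 genes this share was at most 0.686%.

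Promoter windows were read because neighbouring receptor genes differed in their values. The windows of RefSeq (assembly GRCm38.p6) run from 250 bases before to 50 bases after a start. Of the 9 genes, 8 matched an entry, and Clec4n did not. Each was searched on both strands for the PU box of the myeloid factor PU.1 (GAGGAA), its longer form (GAGGAAGT, which contains the first word), AP-1 (TGANTCA), C/EBP (TTGCNNCAA), NF-kB (GGGNNNTTCC) and the interferon-stimulated response element (GAAANNGAAA). The 250 bases before the start are printed 5′ to 3′ for 2 pairs of neighbours or relatives, Clec12a with Clec7a and Clec4a3 with Clec4a2, because the members of each pair had different fold changes. Capitals mark GAGGAA or its reverse complement, and in Clec12a also the AP-1 word. The starts used by RefSeq for Clec12a, Clec4a2 and this entry of Clec4a3 lie inside the gene spans given above.
Clec12a, chr6:129349994-129350243, plus strand: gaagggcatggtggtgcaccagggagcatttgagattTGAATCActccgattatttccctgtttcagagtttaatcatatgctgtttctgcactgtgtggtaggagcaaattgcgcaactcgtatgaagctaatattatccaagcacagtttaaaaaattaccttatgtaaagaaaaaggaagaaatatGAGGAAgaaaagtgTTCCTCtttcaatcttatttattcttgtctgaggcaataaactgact
Clec7a, chr6:129472780-129473029, minus strand: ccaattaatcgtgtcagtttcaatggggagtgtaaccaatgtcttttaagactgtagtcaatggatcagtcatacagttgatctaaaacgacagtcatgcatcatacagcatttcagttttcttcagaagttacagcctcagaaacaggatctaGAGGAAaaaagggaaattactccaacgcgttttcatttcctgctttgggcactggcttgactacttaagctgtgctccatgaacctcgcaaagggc
Clec4a3, chr6:122952394-122952643, plus strand: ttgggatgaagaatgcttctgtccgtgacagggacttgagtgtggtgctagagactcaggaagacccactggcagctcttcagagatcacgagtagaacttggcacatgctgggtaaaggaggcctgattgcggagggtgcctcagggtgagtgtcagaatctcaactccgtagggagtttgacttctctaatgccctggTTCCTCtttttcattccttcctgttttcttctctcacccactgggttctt
Clec4a2, chr6:123122440-123122689, plus strand: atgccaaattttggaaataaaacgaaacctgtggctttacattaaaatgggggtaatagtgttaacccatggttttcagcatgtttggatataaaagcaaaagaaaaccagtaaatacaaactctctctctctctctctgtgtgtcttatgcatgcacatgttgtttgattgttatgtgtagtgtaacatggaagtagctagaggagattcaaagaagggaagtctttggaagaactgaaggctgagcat

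The word GAGGAA was present in a window of 7 of the 8 genes, against 28.3% of 32817 mouse windows. Clec4a2 was the gene without it. In Clec12a the words began 61 and 47 bases before the start, in Clec7a 96 bases and in Clec4a3 50 bases before it. The other Clec4a3 entry, with a start further upstream, held none of the words. The AP-1 word was in the windows of Clec12a (213 bases before the start) and Clec4a2 (31 bases after it), against 7.81% of all windows. The interferon word was in that of Clec4d, against 3.43% of all windows. GAGGAAGT, the C/EBP word and the NF-kB word were in none of the 8, against 3.2%, 2.08% and 5.56% of all windows. These are matches of letters and not measured binding. Whether they bear on the fold changes was not tested.

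In WT macrophages, 7 of the receptors were among the abundant transcripts and the other two, Clec5a and Clec4e, were not. Levels between genes were compared as CPM per kilobase of exon, with all annotated exons of a gene joined. Clec4a1 stood at 303 ± 19 and Clec4d at 300 ± 34 CPM per kilobase (SD, n = 3), and these neighbours in the order did not differ beyond their spread. Clec7a followed at 169 ± 26.6, Clec4a3 at 119 ± 15.8, Clec4n at 95.4 ± 5.69, Clec12a at 79.4 ± 6.45 and Clec4a2 at 54.7 ± 6.01 CPM per kilobase (SD, n = 3), each with a range that did not overlap that of the next. Clec5a at 2.69 ± 0.412 and Clec4e at 1.69 ± 0.606 CPM per kilobase (SD, n = 3) were far lower, and their ranges overlapped. The 7 abundant receptors exceeded 95.3% to 99.4% of 16368 tested genes with a known length, Clec5a exceeded 42.7% and Clec4e 34.2%. The order depended on the length used: per kilobase of the longest transcript, Clec4d came first with 363 and Clec12a moved ahead of Clec4a3 and Clec4n with 136 CPM per kilobase.

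**Figure D1:**
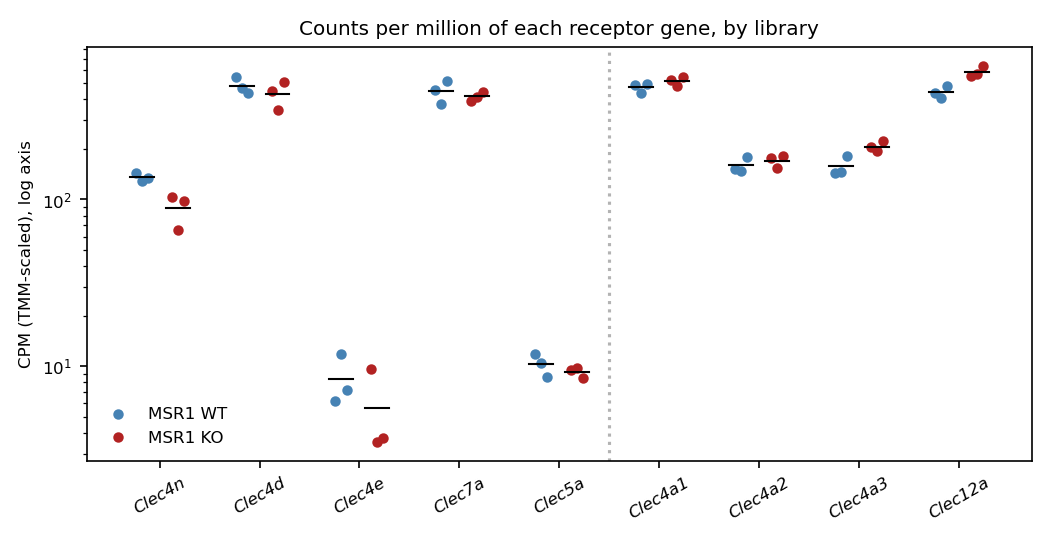
CPM of each receptor gene on a log axis, by library (points, blue for MSR1 WT and red for MSR1 KO) with the mean of each genotype (line); the dotted line divides the activating receptors (left) from the inhibitory receptors and DCIR relatives (right). The 3 KO libraries lie above all WT libraries for Clec12a and Clec4a3 and below them for Clec4n, and the points of the other 6 genes overlap between genotypes.

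Which receptors differed between MSR1 KO and MSR1 WT macrophages was asked first. Clec12a was higher in KO macrophages and was the only one of the 9 genes to pass an adjusted p under 0.05 by the edgeR quasi-likelihood test. This was 1 gene of 9, where 2.25% of all tested genes were called higher. None of the 9 genes was called lower, where 2.66% of all tested genes were. At an unadjusted p under 0.05, 3 of the 9 genes passed (Clec12a, Clec4n and Clec4a3) in edgeR, where 18.9% of all tested genes did. By DESeq2 at an adjusted p under 0.05, 2 of the 9 were called higher (Clec12a and Clec4a3) and 1 lower (Clec4n), where 4.54% and 5.20% of 15297 genes with an adjusted p were. Under the study's own definition of a differentially expressed gene (DEG), which asks for more than a 1.5-fold change and p under 0.05 before adjustment, 0 of the 9 were higher, against 3.59% of tested genes, and 1 was lower (Clec4n), against 5.05%. In 2 of the 9 genes all KO libraries lay above all WT libraries, against 12.1% of tested genes, and in 1 they lay below, against 13.4%. These counts are too small for a statement on the receptors as a list. In bulk libraries such as these, fewer cells that express a gene and less RNA per cell cannot be told apart.

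**Figure D2:**
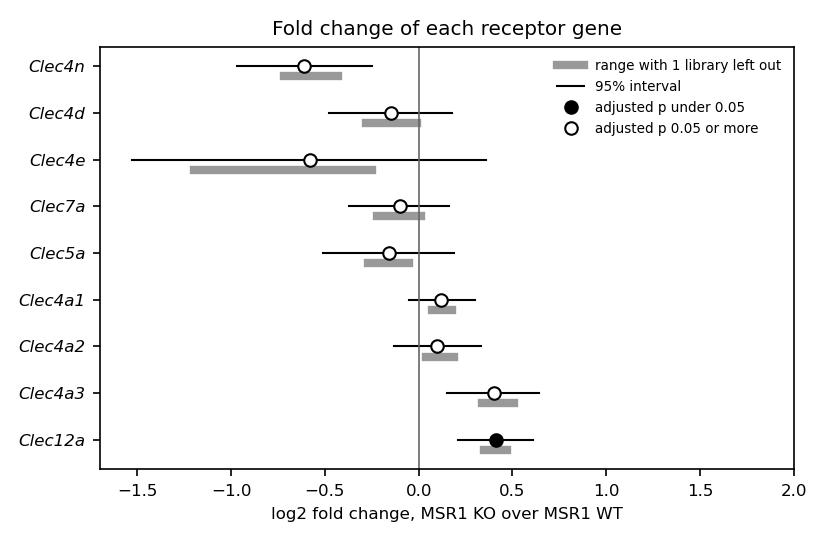
Log2 fold change of each receptor gene, MSR1 KO over MSR1 WT, with the 95% interval (thin line), a filled point where the adjusted p was under 0.05, and the range of the fold change when 1 library was left out (grey bar). The 5 activating receptors have points below 0 and the other 4 have points above 0, the filled point is Clec12a, and 6 of the 9 intervals include 0.

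Clec12a encodes MICL, an inhibitory receptor that senses uric acid crystals released by dying cells. It had 551, 565 and 633 CPM in the KO libraries and 434, 406 and 476 CPM in the WT libraries. All 3 KO values lay above all 3 WT values. The means were 583 ± 43.8 and 439 ± 35.6 CPM (SD, n = 3), a 1.33-fold difference and a log2 fold change of 0.41 (SE 0.085, 95% interval 0.21 to 0.61, adjusted p = 0.036, edgeR). Counts were 17897 to 29413 per library, so counting error was small beside the spread between libraries. The smallest p of an exact permutation test with 3 against 3 libraries is 0.1, and Clec12a reached it. The adjusted p was 0.079, 0.07 and 0.072 without KO replicate 1, 2 or 3 and 0.14 and 0.13 without WT replicate 1 or 2 (edgeR), so the call needed each of these 5 libraries, and the log2 fold change with 1 library left out was 0.35 to 0.47.

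Clec4n encodes Dectin-2, which binds mannans of fungi and signals through FcRγ. It had 103, 65.5 and 98.2 CPM in the KO libraries and 144, 129 and 134 CPM in the WT libraries. All 3 KO values were the lower ones, with KO replicate 2 well below the others. The means were 88.8 ± 20.3 and 135 ± 8.08 CPM (SD, n = 3), a log2 fold change of -0.61 (SE 0.16, 95% interval -0.97 to -0.25), which met the DEG definition. It did not pass adjustment by edgeR (adjusted p = 0.071), and it did by DESeq2 (adjusted p = 0.0023). It no longer met the DEG definition without KO replicate 2, when the log2 fold change was -0.43, or without WT replicate 1, when it was -0.56. Its exact permutation p was 0.1.

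Clec4d and Clec4e, the genes next to Clec4n, encode MCL and Mincle, which recognise the mycobacterial cord factor. Clec4d had 446, 342 and 506 CPM in KO and 539, 469 and 432 CPM in WT libraries. These values overlapped, and the log2 fold change was -0.15 (95% interval -0.48 to 0.18, adjusted p = 0.63, edgeR). Clec4e had 9.58, 3.52 and 3.74 CPM in KO and 6.16, 11.8 and 7.17 CPM in WT libraries. KO replicate 1 stood apart from the other KO libraries, and the log2 fold change of -0.58 had the widest interval of the 9 genes (-1.53 to 0.36, adjusted p = 0.51, edgeR). Its lowest count of 140 gave a counting error of 8.45%, against a coefficient of variation between libraries of 61.2% in KO and 35.9% in WT. Without KO replicate 1, the fold change of Clec4e was -1.20 on the log2 scale and met the DEG definition. With any other library left out, it was -0.76 to -0.25 and did not meet that definition.

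Clec7a encodes Dectin-1, the receptor for fungal β-glucan. It had 392, 411 and 443 CPM in KO and 451, 373 and 513 CPM in WT libraries, and every KO value lay within the WT range. The log2 fold change was -0.10 (95% interval -0.37 to 0.16, adjusted p = 0.7, edgeR). Clec5a encodes MDL-1, a DAP12-coupled receptor known for binding dengue virus. It had 9.49, 9.8 and 8.48 CPM in KO and 11.8, 10.5 and 8.67 CPM in WT libraries, which overlapped, with a log2 fold change of -0.16 (95% interval -0.51 to 0.19, adjusted p = 0.64, edgeR).

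Of the DCIR family, Clec4a3 was the gene whose genotypes did not overlap. It had 205, 194 and 224 CPM in KO and 145, 147 and 182 CPM in WT libraries. The means of 208 ± 15 and 158 ± 21 CPM (SD, n = 3) gave a log2 fold change of 0.40 (SE 0.1, 95% interval 0.15 to 0.64). It did not pass adjustment by edgeR (adjusted p = 0.077), and it did by DESeq2 (adjusted p = 0.011). WT replicate 3 was the highest WT library, and without it the adjusted p was 0.023 (edgeR). With any other library left out, the adjusted p was 0.1 to 0.25 (edgeR). Clec4a1 had 520, 477 and 545 CPM in KO and 484, 437 and 492 CPM in WT libraries, with a log2 fold change of 0.12 (95% interval -0.05 to 0.30, adjusted p = 0.45, edgeR). Clec4a2, which encodes DCIR, had 177, 154 and 182 CPM in KO and 152, 148 and 180 CPM in WT libraries, with a log2 fold change of 0.10 (95% interval -0.13 to 0.33, adjusted p = 0.67, edgeR). The values of both overlapped between genotypes. For Clec4a1, Clec4a2, Clec4d, Clec5a and Clec7a the intervals lay between -0.51 and 0.33 on the log2 scale. A p above the threshold does not show that the genotypes are alike.

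By role, the 5 activating receptors had log2 fold changes from -0.61 to -0.10 with a median of -0.16, and the inhibitory receptors and DCIR relatives had 0.10 to 0.41 with a median of 0.26. The median over all tested genes was -0.00. Of all counts on the 9 genes, those on Clec4a1, Clec4a2, Clec4a3 and Clec12a made up 60.2%, 62.6% and 59.9% in the KO libraries and 51.3%, 53.4% and 54.9% in the WT libraries. This share was 60.9% ± 1.45 and 53.2% ± 1.78 (SD, n = 3), without overlap between genotypes, and is given without a test because the genes had been grouped with results of these libraries known. Summed levels were 832 to 1059 CPM in KO and 993 to 1152 CPM in WT libraries for the activating receptors. For the other 4 genes they were 1390 to 1583 and 1138 to 1331 CPM. Most of that difference lay in Clec12a (means of 583 CPM in KO and 439 in WT) and Clec4a3 (208 and 158). The values of Clec4a1 (means of 514 and 471 CPM) and Clec4a2 (171 and 160) overlapped between genotypes. A shift by role was not tested.

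Neighbouring genes were then set against each other within a library, which removes the scaling between libraries. The ratio of Clec12a counts to Clec7a counts, genes 96.3 kb apart, was 1.41, 1.38 and 1.43 in KO and 0.963, 1.09 and 0.928 in WT libraries. Clec12a thus had about as many counts as Clec7a in WT macrophages and more in all KO libraries. The ratio of Clec4n to Clec4d, 15.1 kb apart, was 0.231, 0.192 and 0.194 in KO and 0.268, 0.274 and 0.309 in WT libraries. That of Clec4a3 to Clec4a2 was 1.16, 1.26 and 1.23 in KO and 0.955, 0.989 and 1.01 in WT libraries. These 3 ratios did not overlap between genotypes, nor did those of Clec4a1 to Clec4a3 (2.43 to 2.54 in KO and 2.7 to 3.35 in WT) and of Clec4a2 to Clec4n (1.73 to 2.36 in KO and 1.05 to 1.35 in WT). Each of the 5 had an exact two-sided permutation p of 0.1, the smallest possible, and neighbouring ratios share genes. Each of the 5 contains Clec12a, Clec4n or Clec4a3, so these ratios are not independent of those genes' own values, which did not overlap. Of single tested genes, 12.1% had all KO libraries above all WT libraries and 13.4% had them below. The share of ratios without overlap among other gene pairs was not measured. The ratio of Clec4d to Clec4e overlapped, with 46.5 to 135 in KO and 39.7 to 87.4 in WT libraries (exact permutation p = 0.4). The ratios across the wide gaps, Clec5a to Clec4a1 and Clec4e to Clec12a, also overlapped (exact permutation p = 0.3 for each).

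**Figure D3:**
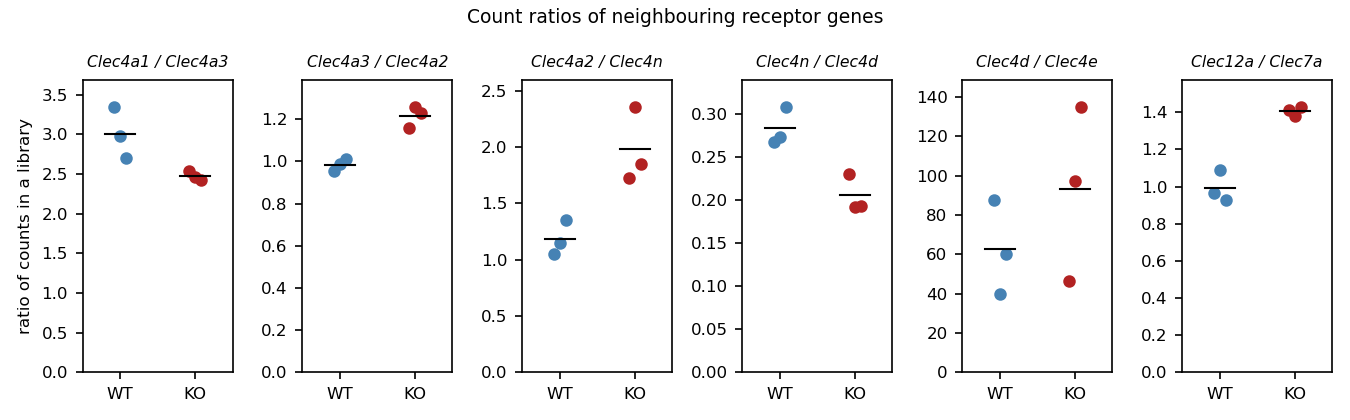
Ratio of counts of neighbouring receptor genes in each library (points) with the genotype mean (line), on axes that start at 0 and differ between panels. The ratio of Clec12a to Clec7a is 1.38 to 1.43 in KO and 0.928 to 1.09 in WT libraries, and of the 6 ratios that of Clec4d to Clec4e overlaps between genotypes.

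Of 38 other genes within 100 kb of a receptor gene, 16 were tested. At an adjusted p under 0.05 (edgeR), 0 were called in either direction, against 4.91% of all tested genes. Against 18.9% of all tested genes, 2 of the 16 had an unadjusted p under 0.05. These were Gabarapl1 (log2 fold change -0.36, adjusted p = 0.088, edgeR), an autophagy gene, and Cd69 (0.91, adjusted p = 0.081, edgeR), a leukocyte activation antigen that is itself a C-type lectin, and both are named after their values were seen. Over the whole of chromosome 6, 43 of 861 tested genes (4.99%) were called, against 4.91% of all tested genes.

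Deviations of the receptors from library to library within a genotype were compared pair by pair. Over the 36 pairs of receptor genes, the correlation of deviations of log2 CPM from the genotype mean over 6 libraries had a median of 0.21 and lay above 0 in 26 pairs. It was 0.94 for Clec4a2 with Clec4a3, 0.91 for Clec7a with Clec12a and 0.86 for Clec4d with Clec4n. Genes far apart on chromosome 6 also reached high values, with 0.85 for Clec4a3 with Clec12a, while Clec4d and Clec4e, which are adjacent, had 0.10. The lowest correlation was -0.95, for Clec5a with Clec4a3. KO replicate 2 was low in both Clec4n (-0.41) and Clec4d (-0.32), and Clec4e deviated most, by 0.93 in KO replicate 1. These are descriptions over libraries that share their depth and scaling. Correlations of other gene pairs were not measured, so these values are not shown to be unusual.

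**Figure D4:**
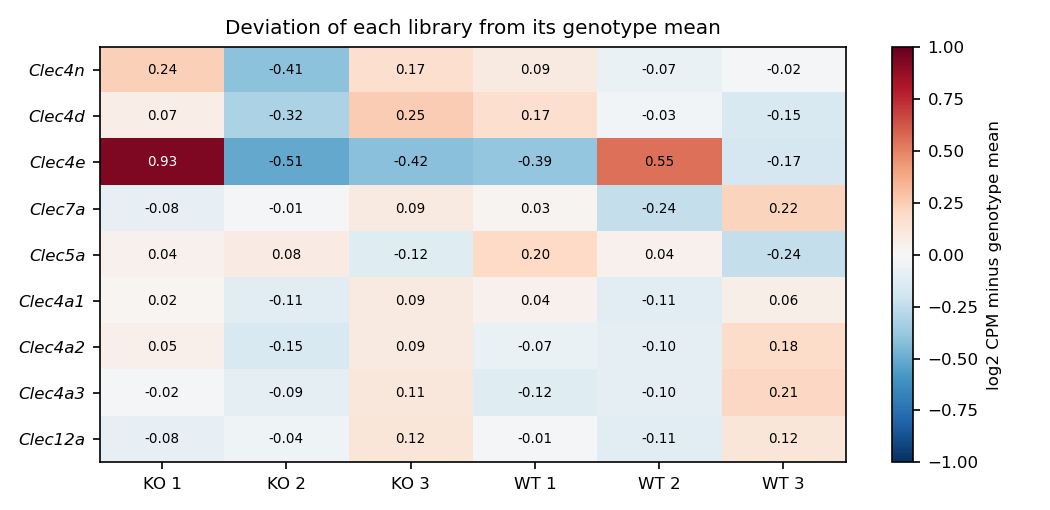
Deviation of each library from the mean of its genotype, in log2 CPM, for each receptor gene (red above, blue below the mean). Clec4e varies most, from -0.51 to 0.93, and KO replicate 2 is low in Clec4n and Clec4d.

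For each receptor, the gene outside the 9 with the nearest pattern over the 6 libraries was sought among 13602 genes with a mean of at least 1 CPM, by the root mean square difference of centred log2 CPM. Clec12a lay closest to Vcpkmt (0.023), Clec4a3 to Nfxl1 (0.024), Clec4a1 to Zfp120 (0.017) and Clec4a2 to Ms4a4a (0.030). Clec4n lay closest to Hpn (0.061), Clec4d to Gsto1 (0.033), Clec7a to Ica1l (0.030), Clec5a to 2610507I01Rik (0.032) and Clec4e to Dscc1 (0.229). The distance was largest for Clec4e, the gene with the widest spread. With 6 libraries and this many candidates, a near pattern is a description.

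The proteins that carry the receptors' signals were looked at next. Of 23 adaptor and signalling genes counted, all were tested. At an adjusted p under 0.05 (edgeR), 1 rose and 1 fell, against 2.25% and 2.66% of all tested genes. The median log2 fold change was 0.12, and 10 had an unadjusted p under 0.05, against 18.9% of all tested genes. Lyn, which encodes a Src-family kinase, rose, with 505 to 612 CPM in KO and 392 to 429 CPM in WT libraries (log2 fold change 0.43, adjusted p = 0.033, edgeR). Src, which encodes another kinase of that family, fell, with 9.77 to 14.4 CPM in KO and 19.4 to 22.4 CPM in WT libraries (log2 fold change -0.88, adjusted p = 0.027, edgeR). Fcer1g, the adaptor of Dectin-2, MCL and Mincle, had 1049, 1057 and 1134 CPM in KO and 892, 879 and 925 CPM in WT libraries, which did not overlap (log2 fold change 0.27, adjusted p = 0.0502, edgeR). Its difference thus had the opposite sign to that of Clec4n. Tyrobp (log2 fold change 0.06, adjusted p = 0.79) and Syk (-0.07, adjusted p = 0.64, edgeR) had values that overlapped.

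Of 25 genes known as targets of this signalling, 19 were tested. Of these, 1 rose and 0 fell (edgeR), against 2.25% and 2.66% of all tested genes. An unadjusted p under 0.05 was found in 7 of the 19, against 18.9% of all tested genes. The median log2 fold change was 0.22. The chemokine gene Ccl4 had 38.1 to 41.7 CPM in KO and 22.4 to 27.4 CPM in WT libraries (log2 fold change 0.70, adjusted p = 0.015, edgeR). Of the abundant members, the chemokine gene Ccl3 stood at a log2 fold change of 0.13 (adjusted p = 0.58), Nfkbia, the NF-kB inhibitor, of -0.05 (adjusted p = 0.81) and the inflammasome sensor Nlrp3 of 0.39 (adjusted p = 0.055, edgeR). Il6, Il12b, Il23a, Csf2, Csf3 and Ccl17 had too few counts to be tested.

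Of 18 transcription factors of macrophages and of this pathway counted, all tested, 0 were called in either direction (edgeR), against 4.91% of all tested genes, with a median of 0.05, and 2 had an unadjusted p under 0.05, against 18.9%. By DESeq2, 1 was called higher, against 4.54% of genes. The abundant members were Maf (log2 fold change 0.09, adjusted p = 0.66), a factor of macrophage differentiation, Irf8 (0.10, adjusted p = 0.48), a factor of myeloid lineage choice, and Stat6 (0.13, adjusted p = 0.28, edgeR), which transmits the IL-4 signal.

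Of 40 other C-type lectin genes counted, 27 were tested, 2 rose and 2 fell (edgeR), with a median of 0.01, and 9 of the 27 had an unadjusted p under 0.05. Over all tested genes, 2.25% rose, 2.66% fell and 18.9% had an unadjusted p under 0.05. The mannose receptor Mrc1 had 1376 to 1572 CPM in KO and 1808 to 2112 CPM in WT libraries (log2 fold change -0.39, adjusted p = 0.037, edgeR), and Cd302 had 36.6 to 39.7 and 48.4 to 59.3 CPM (-0.52, adjusted p = 0.027, edgeR). The genes that rose were Cd72, an inhibitory receptor best known from B cells (log2 fold change 0.52, adjusted p = 0.0491, edgeR), and Klra2, of the Ly49 receptors (2.46, adjusted p = 0.03, edgeR). Klra2 had a low level that varied between libraries, with 22, 33.8 and 9.25 CPM in KO and 2.84, 2.99 and 5.98 CPM in WT libraries. For Cd93, an abundant member, the log2 fold change was 0.12 (adjusted p = 0.38, edgeR). As among the 9 receptors, genes of both signs were found here, and whether the lists differ was not tested.

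Of 9 ligands and membrane partners, all tested, 2 rose and 3 fell (edgeR), against 2.25% and 2.66% of all tested genes, with a median of -0.01, and 6 had an unadjusted p under 0.05, against 18.9%. Anxa1, an annexin exposed by dying cells, had 189 to 207 CPM in KO and 370 to 457 CPM in WT libraries (log2 fold change -1.04, adjusted p = 0.0032, edgeR). Vim, the filament protein vimentin (-0.35, adjusted p = 0.043), and the tetraspanin gene Cd63 (-0.39, adjusted p = 0.04, edgeR) also fell. Lgals9, which encodes galectin-9 (0.51, adjusted p = 0.041), and Myd88, the adaptor of Toll-like receptors (0.45, adjusted p = 0.029, edgeR), rose. For Anxa5 the log2 fold change was -0.13 (adjusted p = 0.34, edgeR). Over 12 alternative fits (another test, scaling or filter, a replicate term, or 1 library left out), Anxa1 was called in all 12. The number called higher ranged from 0 to 2 among ligands and partners, 0 to 3 among adaptors, 0 to 4 among other lectins, 0 to 3 among targets and 0 to 1 among transcription factors. The number called lower ranged from 1 to 3 among ligands and partners, 0 to 1 among adaptors and 0 to 3 among other lectins. Of the genes that fell, Src, Mrc1 and Cd302 were each called in 6 of the 12 fits, Cd63 in 5 and Vim in 4. Of those that rose, Ccl4 was called in 8, Klra2 in 7, Lyn, Lgals9 and Myd88 in 6 each and Cd72 in 4. All of these genes kept their sign in the 12 fits.

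**Figure D5:**
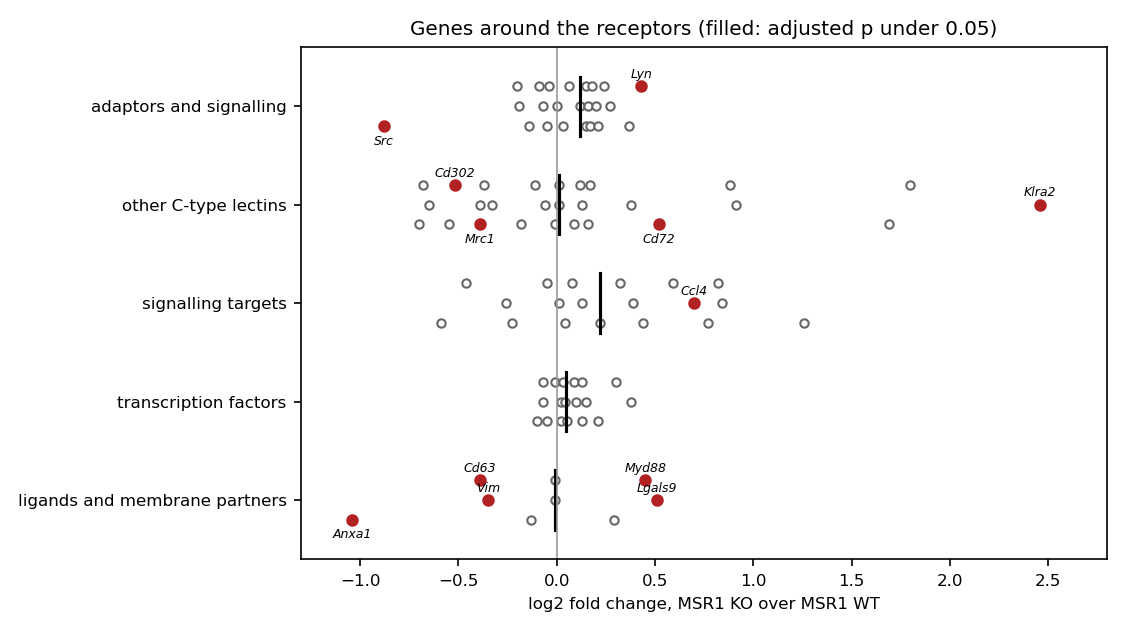
Log2 fold change, MSR1 KO over MSR1 WT, of each tested gene counted in 5 lists (points), red and named where the adjusted p was under 0.05, with the median of each list (black line). Medians lie between -0.01 and 0.22, and called genes lie on both sides of 0 in 3 of the 5 lists.

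Markers of other cell types were measured beside the receptors, since monocytes, neutrophils and dendritic cells also express several of these lectins. Over all tested genes, 2.25% were called higher and 2.66% lower (edgeR). The DEG definition was met as higher by 3.59% and as lower by 5.05% of all tested genes. Of 5 monocyte markers, 2 rose, namely Ly6c2 (log2 fold change 1.40, adjusted p = 0.02) and Plac8 (1.89, adjusted p = 0.0026, edgeR). Of the 5, 3 had log2 fold changes above 0 and 2 below it, and Ccr2, the most abundant of the 5, stood at 0.45 (adjusted p = 0.32, edgeR). Their sum over the 5 genes was 277 to 362 CPM in KO and 154 to 272 CPM in WT libraries, without overlap. Of 10 neutrophil markers, 0 were called (edgeR), and all 10 had log2 fold changes above 0, from 0.25 to 0.99, of which 2 met the DEG definition. Csf3r had an adjusted p of 0.0529 (edgeR). Their sum of 937 to 1348 CPM in KO overlapped the 652 to 1048 CPM in WT libraries. Of 9 dendritic cell markers, 8 were tested and Dpp4 rose (log2 fold change 1.63, adjusted p = 0.024, edgeR), with a sum of 12.2 to 15 CPM in KO and 3.58 to 7.98 CPM in WT libraries. Dpp4 itself made up much of this sum, at a mean of 9.33 CPM in KO and 3.02 CPM in WT. Of the 8 tested markers, 5 had log2 fold changes above 0 and 3 below it, and 3 met the DEG definition as higher. Of 10 stromal markers, Pdgfra (-1.19, adjusted p = 0.014) and Pdgfrb (-0.87, adjusted p = 0.025, edgeR) fell. Of the 10, 8 had log2 fold changes below 0 and 2 above it, and 3 met the DEG definition as lower and 1 as higher (Thy1, 1.31, adjusted p = 0.091, edgeR). The sum was 1409 to 1920 CPM in KO and 1851 to 2317 CPM in WT libraries, which overlapped. No marker was at 0 counts in all libraries. The part of these cell types in the receptors' values was not tested.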

How the data were processed

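Macrophage RNA-seq libraries of 3 MSR1 KO and 3 MSR1 WT samples were analysed, described by the paper as biological replicates. The authors deposited raw read counts per gene. A signal column per library, deposited by the authors as counts divided by a size factor, and columns with the authors' own fold changes and p-values were not used. The submitters' processing notes list fastp 0.17.1, HISAT2 2.1.0, DESeq2 1.18.1 and R 3.4.3, whereas the paper's methods name TopHat and FPKM values. The genome build, the strand setting and the program used for counting are not given in the sources used here. Reads that match several genes may have been dropped or split by the counting. Of 52550 gene identifiers, 49909 had the same start and end in the GENCODE annotation of GRCm38. The 37 mitochondrial genes had a count of 0 throughout, so their share could not serve as a sign of RNA quality.

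Counts were filtered with filterByExpr, scaled by TMM and tested on all genes by edgeR 4.0.16 (glmQLFit, then glmQLFTest; R 4.3.3) without covariates, with Benjamini-Hochberg adjustment over 16402 tested genes. CPM were TMM-scaled. The members and lists were chosen with earlier results of these data known. Named genes were all members, in each list the genes with an adjusted p under 0.05 and the 3 most abundant, Msr1 and the nearest pattern to each member. Gabarapl1, Cd69 and Thy1 fall outside this rule and were chosen after their values were seen. Lists covered adaptors and signalling, signalling targets, transcription factors, other C-type lectins, ligands and membrane partners, and markers of macrophages, monocytes, neutrophils, dendritic cells and stromal cells. Genes of these lists that are not reported here (4 in all) were taken out of the lists' counts, medians and sums, for reasons other than their values. Alternatives were DESeq2 1.42.0, its size factors, library size alone, no filter, at least 10 counts per library, a replicate block, leaving out libraries in turn, and the longest transcript as length. Totals of 36143518 to 47417448 counts per library made counting error smaller than the spread between libraries for the receptors, and counting errors cover counting only. The protein sequences of the receptors were not analysed here.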

Additional observations from a re-analysis of the deposited data

How the results depend on the processing

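Of the 9 receptors, the number called higher at an adjusted p under 0.05 was 1 with edgeR, and stayed 1 with DESeq2's size factors, library size alone, no filter and a minimum of 10 counts. It was 2 with DESeq2 (Clec12a and Clec4a3) and 0 to 2 with 1 library left out, with 2 without WT replicate 3. The number called lower was 0, and 1 with DESeq2 (Clec4n). The number of lower DEGs was 1, and 0 to 2 with 1 library left out. No receptor was a higher DEG in any alternative. Without 1 of the libraries, log2 fold changes were -0.22 to 0.01 for Clec7a (above 0 without WT replicate 3) and -0.11 to 0.02 for Nfkbia (above 0 without WT replicate 2), and neither was called. Over 12 alternatives, Clec12a had an adjusted p under 0.05 in 6, Clec4a3 in 2 and Clec4n in 1, and in all 12 each kept its sign and an unadjusted p under 0.05. The causes were not tested.

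Same-numbered libraries of the genotypes deviated with correlations of 0.00, -0.00 and -0.03, so their deviations gave no sign of pairing. Whether they were prepared together cannot be read from these values. With the replicate number as a block, 0 receptors were called higher (Clec12a had an adjusted p of 0.061, edgeR), and over all genes 59 were higher and 78 lower, against 369 and 436 without it, 695 and 795 with DESeq2, and 237 and 288 without a filter. With 1 library left out they were 18 to 407 higher and 53 to 372 lower. Library size alone moved the median of all genes by -0.034. Per kilobase of the longest transcript, Clec12a had 136 CPM in WT libraries and 79.4 with all exons. For all 9 receptors the spread between libraries exceeded the counting error.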
